A study of Mus musculus with 8 samples.

Results

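Homologous recombination and the Fanconi anaemia pathway repair broken and crosslinked DNA, and 35 mouse genes of these pathways, their checkpoint kinases and the mismatch repair factor Msh6 were followed in cultured vascular smooth muscle cells. The genes were chosen by name, with earlier results of these data known. Of the 35 genes 33 were found among the 24704 genes measured, each through 1 probe set. Xrcc2 and Rbbp8 were not analysed here. The cells came from the mouse aorta, and total RNA was hybridised to 8 single-colour Affymetrix arrays. The tested cultures received the adenovirus titled AdN5, which the labels describe as overexpressing NFAT5 (4 arrays). The control cultures received the adenovirus titled AdPl (4 arrays). Both groups had 24 h with virus, followed by 72 h with cholesterol (10 µg/ml), so that neither group was free of virus or of cholesterol. NFAT5, also called TonEBP, controls genes that protect cells from osmotic stress. The question is which transcripts differ when it is overexpressed in cholesterol-loaded smooth muscle cells. The mouse strain and age, the promoter that drives the virus insert, and whether replicates came from separate cultures are not stated. The p-values therefore measure only the spread between these arrays, which may be technical.

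The transcript named by the labels went against them. Nfat5 had a mean log2 level of 6.97 ± 0.072 in the AdN5-labelled arrays and of 7.16 ± 0.089 in the AdPl arrays (SD, n = 4 each; log2 difference -0.19 ± 0.078 SE, adjusted p = 0.360 in limma, exact two-sided permutation p = 0.0571). A probe set that does not read the virus insert would not check the labels, and the positions of its probes are not given. Every direction given here is drawn from the labels. AdN5 replicate 4 (-24.7) and AdPl replicate 3 (-14.2) had the lowest scores on the second principal component. AdN5 replicates 3 (19.5) and 2 (11.1) had the highest. Counts are also given without AdN5 replicate 4 and AdPl replicate 3. Of 9 smooth muscle markers 7 lay above the median probe set, and Des and Myocd lay under it. Above it also lay 8 of 9 macrophage, 7 of 9 fibroblast or adventitial and 5 of 8 endothelial markers, and these levels do not check the cell type by themselves.

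A broken chromosome is repaired by homologous recombination when its ends are cut back to single strands and paired with the intact sister copy. BRCA1, PALB2 and BRCA2 prepare the single strand for this exchange, and the products of genes such as Rad51c, Xrcc3 and Rad54l stabilise and drive it. In the Fanconi pathway a core ubiquitin ligase complex marks the FANCD2 and FANCI proteins at a crosslink, which is then handed to recombination. The kinases ATM and ATR sense the damage and signal through CHEK2 and CHEK1. Many of these genes are transcribed most strongly while cells copy their DNA, so their transcripts are usually low in resting smooth muscle.

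None of the 33 genes passed the test of the AdN5-labelled against the AdPl arrays. In limma 0 were called at an adjusted p under 0.05, where 0.777% of all genes were (0.364% higher and 0.413% lower). Before adjustment, 10 genes (30.3%) were higher with a p under 0.05, where 6.24% of all genes were. They were Rad54l, Brca1, Exo1, Rad51c, Brip1, Brca2, Xrcc3, Ube2t, Fancg and Rad50. Only Atr was lower at that level, 3.03% of the 33, against 6.29% of all genes. Both directions together held 12.5% of all genes. Without AdN5 replicate 4 and AdPl replicate 3 the counts were 7 higher and 2 lower, and they were 6 higher and 2 lower without AdPl replicate 3 alone. The lower count was 0 without AdN5 replicate 2, AdPl replicate 2 or AdPl replicate 4. The log2 difference was above 0 for 24 of the 33 genes, 72.7%, against 51% of all genes. Its median was 0.15 over the 33 genes, ranging from -0.34 to 0.58, and 0.0042 over all genes. Without AdN5 replicate 2 the median over the 33 genes was 0.085. The 4 AdN5-labelled arrays lay above all 4 AdPl arrays for 5 genes, 15.2%, against 4.22% of all genes, and below them for 0 genes, against 4.56% (8.78% of all genes in either direction). These genes were measured on the same 8 arrays and are not independent of each other. They were also chosen with earlier results of these data known, so their shares are no test against all genes. In cultures measured in bulk, more cells that express a gene and more transcript in each cell cannot be told apart.

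**Figure D1:**
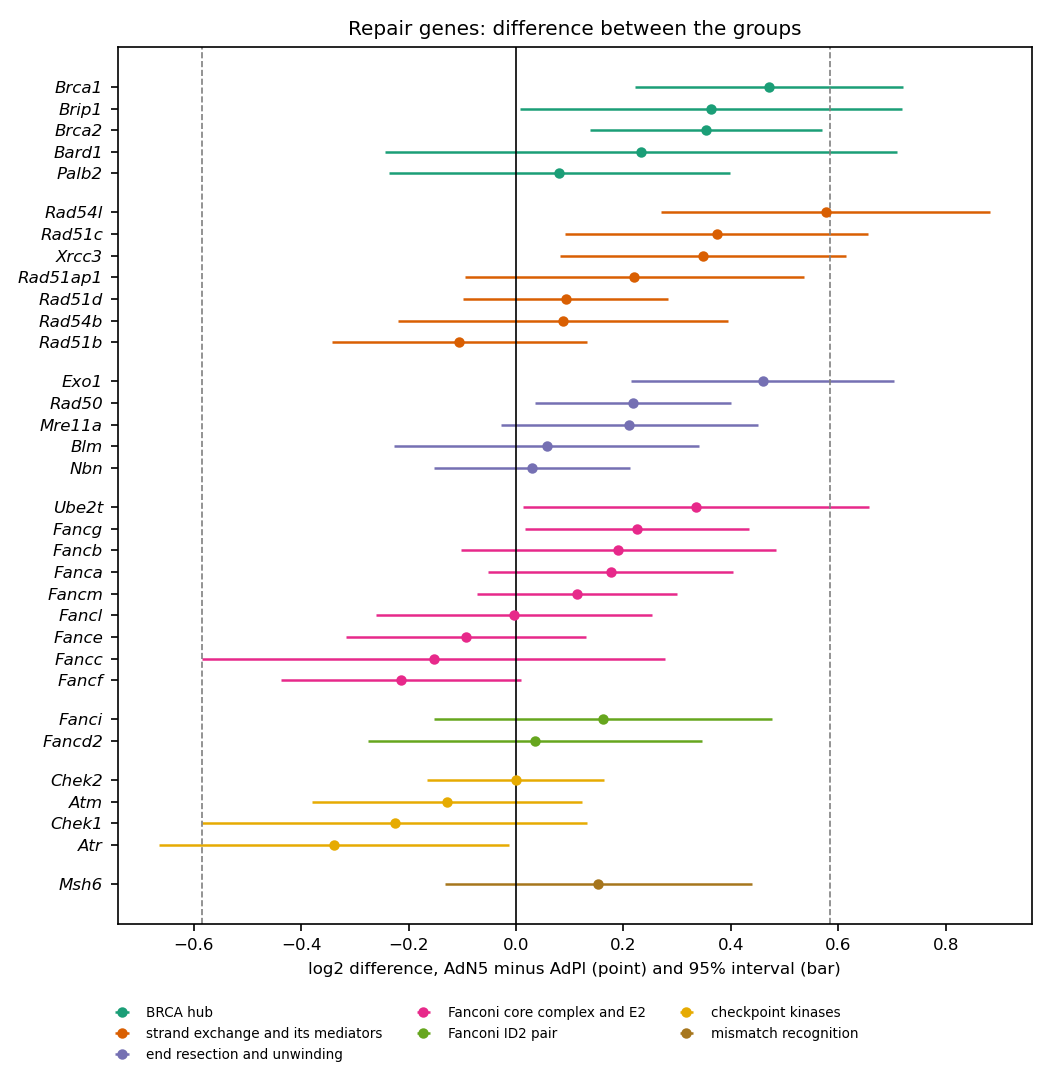
Log2 difference between the AdN5-labelled and the AdPl arrays (x axis) for the 33 repair genes, grouped by role and coloured by group, with 95% intervals from limma as bars. The dashed lines mark a 1.5-fold change in either direction, and 24 of the 33 intervals lie between them. The highest value is Rad54l at 0.58 and the lowest is Atr at -0.34.

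The 95% interval stayed within a 1.5-fold change in either direction for 24 of the 33 genes, against 21508 of all 24704 genes. For 8 genes its upper bound passed a 1.5-fold increase, up to 0.88 on the log2 scale for Rad54l, and for Atr its lower bound of -0.66 passed a 1.5-fold decrease. Of all 24704 genes 1601 passed the increase with the upper bound and 1719 the decrease with the lower. The estimate itself passed 1.5-fold for 0 of the 33 genes, against 247 of all genes. These intervals rest on the spread between these arrays, and RMA compresses differences of dim genes, so they do not bound the true change.

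Brca1, Brca2, Rad54l and Atr are shown with their promoters because the first 3 had groups that did not overlap and Atr had the lowest difference of all. Exo1 and Rad50 also had groups apart, but no RefSeq promoter was found for them. The sequences are RefSeq promoters on GRCm38.p6, from 250 bases before to 50 bases after the annotated start, printed 5′ to 3′ along the gene. Brca1 lies at chr11:101551906-101552205 (minus strand), Brca2 at chr5:150522371-150522670 (plus strand), Rad54l at chr4:116123641-116123940 (minus strand) and Atr at chr9:95857347-95857646 (plus strand). Capitals mark words found in a search of both strands for the E2F site (TTTCCCGC, TTTCGCGC, TTTGCCGC or TTTGGCGC), the CHR element (TTTGAA or TTCGAA), the CCAAT box (CCAAT) and the core of NFAT sites (TGGAAA). None of these words lies inside another.
Brca1: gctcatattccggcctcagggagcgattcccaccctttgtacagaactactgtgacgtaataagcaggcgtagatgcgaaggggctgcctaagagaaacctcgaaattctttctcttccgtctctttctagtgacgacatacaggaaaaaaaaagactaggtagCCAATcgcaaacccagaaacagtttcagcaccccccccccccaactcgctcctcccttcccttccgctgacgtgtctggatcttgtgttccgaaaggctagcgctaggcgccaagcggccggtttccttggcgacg
Brca2: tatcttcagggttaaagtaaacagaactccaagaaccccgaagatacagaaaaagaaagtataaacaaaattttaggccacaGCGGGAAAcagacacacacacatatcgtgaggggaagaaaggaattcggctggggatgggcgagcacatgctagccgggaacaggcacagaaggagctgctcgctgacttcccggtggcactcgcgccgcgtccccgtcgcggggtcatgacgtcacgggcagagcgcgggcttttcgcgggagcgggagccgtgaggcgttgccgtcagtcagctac
Rad54l: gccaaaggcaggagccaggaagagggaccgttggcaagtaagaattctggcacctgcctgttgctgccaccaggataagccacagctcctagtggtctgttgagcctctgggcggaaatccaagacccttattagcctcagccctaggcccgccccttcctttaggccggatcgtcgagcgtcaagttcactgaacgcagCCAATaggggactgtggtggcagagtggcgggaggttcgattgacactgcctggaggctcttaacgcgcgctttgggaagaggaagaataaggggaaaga
Atr: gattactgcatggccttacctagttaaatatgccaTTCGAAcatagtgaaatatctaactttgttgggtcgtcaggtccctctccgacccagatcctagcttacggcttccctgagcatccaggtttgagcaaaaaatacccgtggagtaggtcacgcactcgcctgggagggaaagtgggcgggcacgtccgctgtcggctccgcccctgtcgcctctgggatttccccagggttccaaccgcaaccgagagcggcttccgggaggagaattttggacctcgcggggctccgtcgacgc
The Brca1 and Rad54l windows each held a CCAAT word, beginning 86 and 50 bases before the start. A second annotated window of Rad54l (chr4:116123640-116123939) is not printed and held a CCAAT word 51 bases before its start. The Brca2 window held an E2F word, read on the reverse strand, 168 bases before the start. The Atr window held a CHR word 215 bases before it.

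The BRCA group holds the scaffold genes of recombination, and all 5 of its differences were above 0 (median 0.35), with 0 called. Brca1, which encodes the ubiquitin ligase that sends breaks into recombination, had log2 levels of 2.81, 3.22, 2.84 and 3.15 in the AdN5-labelled arrays, against 2.48, 2.68, 2.52 and 2.45 in the AdPl arrays. All 4 AdN5-labelled values lay above the highest AdPl value, which was that of replicate 2. The log2 difference was 0.47 ± 0.11 (SE), a fold of 1.39, with an adjusted p of 0.113 in limma. Brca2, a mediator of strand exchange that binds single-stranded DNA, was at 3.50, 3.35, 3.37 and 3.27 in the AdN5-labelled arrays and at 3.06, 3.17, 2.80 and 3.06 in the AdPl arrays. Again the groups did not overlap, and the difference was 0.35 ± 0.096 (adjusted p = 0.166). Brip1, a helicase that binds Brca1, had a difference of 0.36 ± 0.16, with its highest value in AdN5 replicate 2 (3.50) and overlapping groups. Bard1, the obligate partner of Brca1 in its ligase, did not follow it array by array. Its levels were 2.96, 2.40, 3.26 and 2.44 in the AdN5-labelled arrays and 2.18, 2.62, 2.44 and 2.88 in the AdPl arrays, so that AdN5 replicates 2 and 4, the highest for Brca1, were the lowest of the AdN5-labelled arrays for Bard1. Its difference was 0.23 ± 0.21. Palb2, which bridges Brca1 and Brca2, had the smallest difference of the group, at 2.90, 3.03, 2.86 and 2.81 in the AdN5-labelled arrays against 3.24, 2.74, 2.80 and 2.51 in the AdPl arrays (0.080 ± 0.14).

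Among the genes of strand exchange and its mediators 6 of 7 differences were above 0 (median 0.22), with 0 called. Rad54l, a DNA translocase that promotes strand pairing, had the highest difference of all 33 genes. Its levels were 3.31, 2.66, 2.91 and 3.17 in the AdN5-labelled arrays, against 2.44, 2.32, 2.56 and 2.42 in the AdPl arrays. The groups did not overlap, but AdN5 replicate 2 lay only just above AdPl replicate 3. The difference was 0.58 ± 0.14, a fold of 1.49 (adjusted p = 0.113 in limma). With a variance trend and robust estimation its adjusted p was 0.0443, the only call among the 33 genes in any fit run, and over the alternatives that kept this gene the adjusted p ranged from 0.0443 to 0.273. Its close relative Rad54b was at 3.11, 2.92, 2.77 and 2.85 in the AdN5-labelled arrays and at 2.65, 3.06, 3.05 and 2.54 in the AdPl arrays, with a difference of 0.088 ± 0.14. The difference between these relatives was not tested.

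The related genes Rad51b, Rad51c, Rad51d and Xrcc3 had values on both sides of 0, and they were not tested against each other. Rad51c and Xrcc3 encode the partners of a complex that acts late in recombination, and they had differences of 0.37 ± 0.13 (adjusted p = 0.257) and 0.35 ± 0.12 (adjusted p = 0.261). Rad51c was at 4.78, 4.42, 4.69 and 4.91 in the AdN5-labelled arrays and at 4.20, 4.58, 4.35 and 4.19 in the AdPl arrays, and AdPl replicate 2 exceeded AdN5 replicate 2. Xrcc3 was at 5.02, 5.27, 5.18 and 5.01 in the AdN5-labelled arrays and at 4.71, 4.83, 4.51 and 5.04 in the AdPl arrays, where replicate 4 lay above AdN5 replicates 1 and 4. Rad51b and Rad51d, partners of Rad51c in a complex that acts early, were at -0.11 ± 0.11 and 0.092 ± 0.085. Rad51b had the lowest difference of the group, with 4.26, 3.93, 3.85 and 4.10 in the AdN5-labelled arrays against 4.15, 4.18, 4.25 and 3.99 in the AdPl arrays. Rad51ap1, which promotes invasion of the partner duplex, had a difference of 0.22 ± 0.14.

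**Figure D2:**
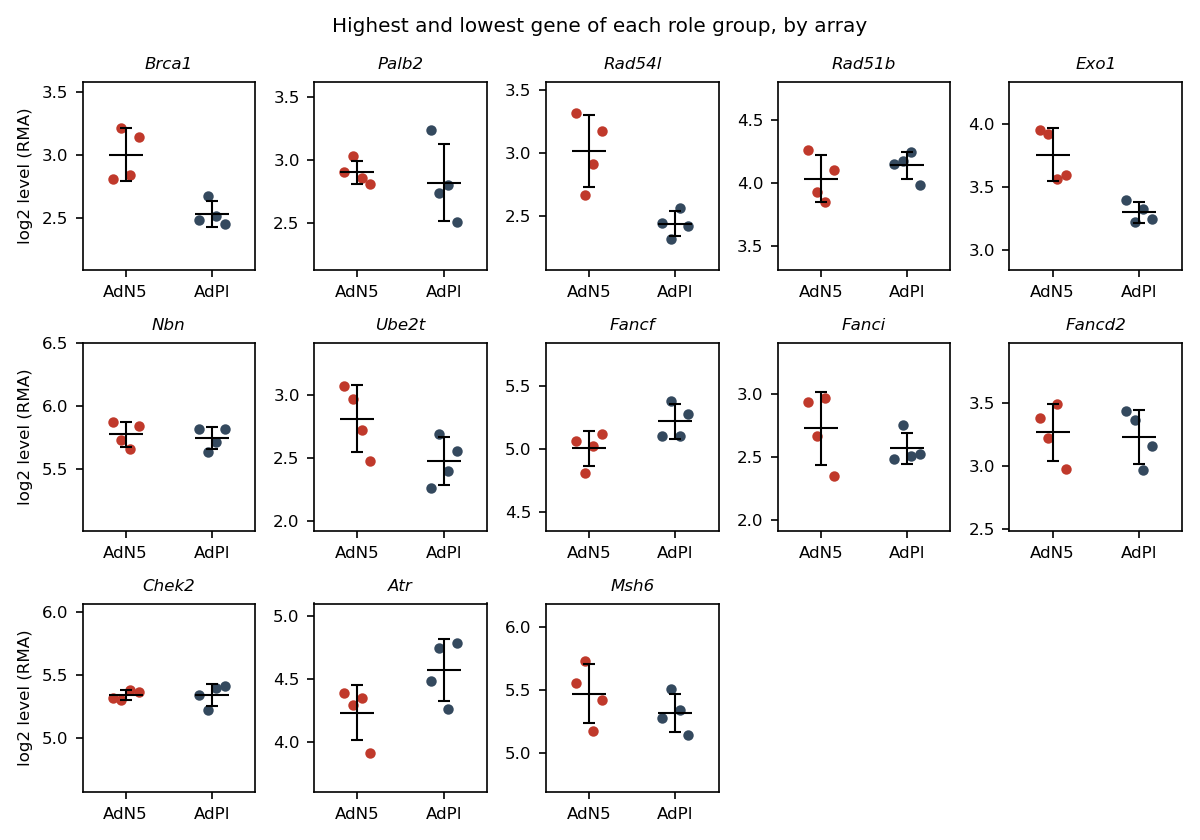
Log2 level (y axis, RMA values, the same span in every panel) of the gene with the highest and the gene with the lowest difference in each role group. Points are single arrays, AdN5-labelled on the left in red and AdPl on the right in blue, and the bar and whiskers are the mean and SD of 4 arrays. The groups are apart for Brca1, Rad54l and Exo1 and overlap for the other genes shown.

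End resection and unwinding genes prepare the single strand and dissolve the joined molecules, and all 5 of their differences were above 0 (median 0.21), with 0 called. Exo1, the exonuclease of long-range resection, was at 3.95, 3.92, 3.56 and 3.59 in the AdN5-labelled arrays and at 3.40, 3.22, 3.32 and 3.25 in the AdPl arrays. The groups were apart, with AdN5 replicates 1 and 2 the highest. The difference was 0.46 ± 0.11, a fold of 1.37 (adjusted p = 0.114 in limma). The subunits of the MRE11 nuclease complex, which recognises the broken end, were not tested against each other. Rad50, its ATPase, was at 6.58, 6.52, 6.77 and 6.53 in the AdN5-labelled arrays and at 6.45, 6.38, 6.32 and 6.39 in the AdPl arrays. The groups were apart by a small margin, with a difference of 0.22 ± 0.081 (adjusted p = 0.302). The nuclease gene Mre11a had 0.21 ± 0.11 with overlapping groups. Nbn, the adaptor that recruits Atm, had 0.030 ± 0.082, with 5.87, 5.73, 5.66 and 5.83 in the AdN5-labelled arrays against 5.81, 5.63, 5.71 and 5.81 in the AdPl arrays. Blm, the helicase mutated in Bloom syndrome, had 0.058 ± 0.13, and AdPl replicate 2 was its highest array (4.35).

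The Fanconi core complex had both signs, with 5 of 9 differences above 0 (median 0.11) and 0 called. The ubiquitin-conjugating enzyme that works with the core ligase is encoded by Ube2t, which had the highest value of this group. It was at 3.07, 2.97, 2.72 and 2.48 in the AdN5-labelled arrays and at 2.26, 2.69, 2.39 and 2.56 in the AdPl arrays, with AdN5 replicate 4 inside the AdPl range (0.33 ± 0.14, adjusted p = 0.379). Fancl, the catalytic ligase subunit that works with Ube2t, was at -0.0033 ± 0.11. The scaffold subunits ran both ways. Fancg (0.23 ± 0.093), Fancb (0.19 ± 0.13) and Fanca (0.18 ± 0.10) were above 0, while Fance (-0.093 ± 0.10), Fancc (-0.15 ± 0.19) and Fancf (-0.21 ± 0.10) were below it. Fancf, which tethers the complex to the Fancm translocase (0.11 ± 0.083), was at 5.07, 4.81, 5.03 and 5.12 in the AdN5-labelled arrays and at 5.11, 5.38, 5.11 and 5.28 in the AdPl arrays. Its groups overlapped through AdN5 replicate 4, and its adjusted p was 0.420.

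The substrates of this ligase, Fancd2 and Fanci, had overlapping groups and were not called. Fancd2 was at 3.38, 3.23, 3.50 and 2.97 in the AdN5-labelled arrays and at 3.44, 3.37, 2.97 and 3.16 in the AdPl arrays, a difference of 0.035 ± 0.14. Fanci, its partner in the clamp on DNA, was at 2.94, 2.67, 2.98 and 2.35 in the AdN5-labelled arrays and at 2.48, 2.76, 2.51 and 2.53 in the AdPl arrays, a difference of 0.16 ± 0.14. AdN5 replicate 4 was the lowest of the AdN5-labelled arrays for both genes.

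All 4 checkpoint kinases had differences below 0 (median -0.18), with 0 called. Atr, which senses stalled replication forks, was at 4.39, 4.29, 4.35 and 3.91 in the AdN5-labelled arrays and at 4.49, 4.75, 4.26 and 4.79 in the AdPl arrays. AdPl replicate 3 lay within the AdN5-labelled range, so the groups overlapped. The difference was -0.34 ± 0.15, a fold of 0.791 (adjusted p = 0.379 in limma). Chek1, the effector kinase below Atr, was at 3.69, 3.34, 3.71 and 3.10 in the AdN5-labelled arrays against 4.01, 3.66, 3.48 and 3.60 in the AdPl arrays (-0.23 ± 0.16). AdN5 replicate 4 was the lowest array for Atr, Chek1 and Atm, and without it their differences were -0.23, -0.11 and -0.030. Atm, which responds to broken ends, had a difference of -0.13 ± 0.11. Its effector Chek2 was at 5.32, 5.31, 5.38 and 5.37 in the AdN5-labelled arrays and at 5.34, 5.23, 5.40 and 5.42 in the AdPl arrays, a difference of -0.00058 with a 95% interval from -0.17 to 0.16. Its sign turned in 5 alternatives, among them those without AdN5 replicate 1 or 2 or AdPl replicate 3 or 4 (0.0086 to 0.023). Msh6, which recognises mismatches, was at 5.56, 5.73, 5.18 and 5.42 in the AdN5-labelled arrays and at 5.28, 5.51, 5.34 and 5.14 in the AdPl arrays (0.15 ± 0.13).

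The AdN5-labelled arrays were also set against the AdPl arrays singly, for the 33 genes only. AdN5 replicate 1 lay above the AdPl mean for 25 of the 33 genes, replicate 2 for 22, replicate 3 for 23 and replicate 4 for 21. The number of genes above every AdPl array was 18, 12, 14 and 9 in these 4 arrays, and the number below every AdPl array was 4, 4, 2 and 4. These counts were not made over all genes, so they show nothing particular to the repair genes. The median distance of the 33 genes from their AdPl mean was 0.20, 0.11, 0.14 and 0.025 on the log2 scale in AdN5 replicates 1 to 4. In the AdPl arrays it was between -0.064 and 0.063. Each AdPl array is part of the AdPl mean, which pulls its distance toward 0. That range is therefore no yardstick for the AdN5-labelled arrays.

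**Figure D3:**
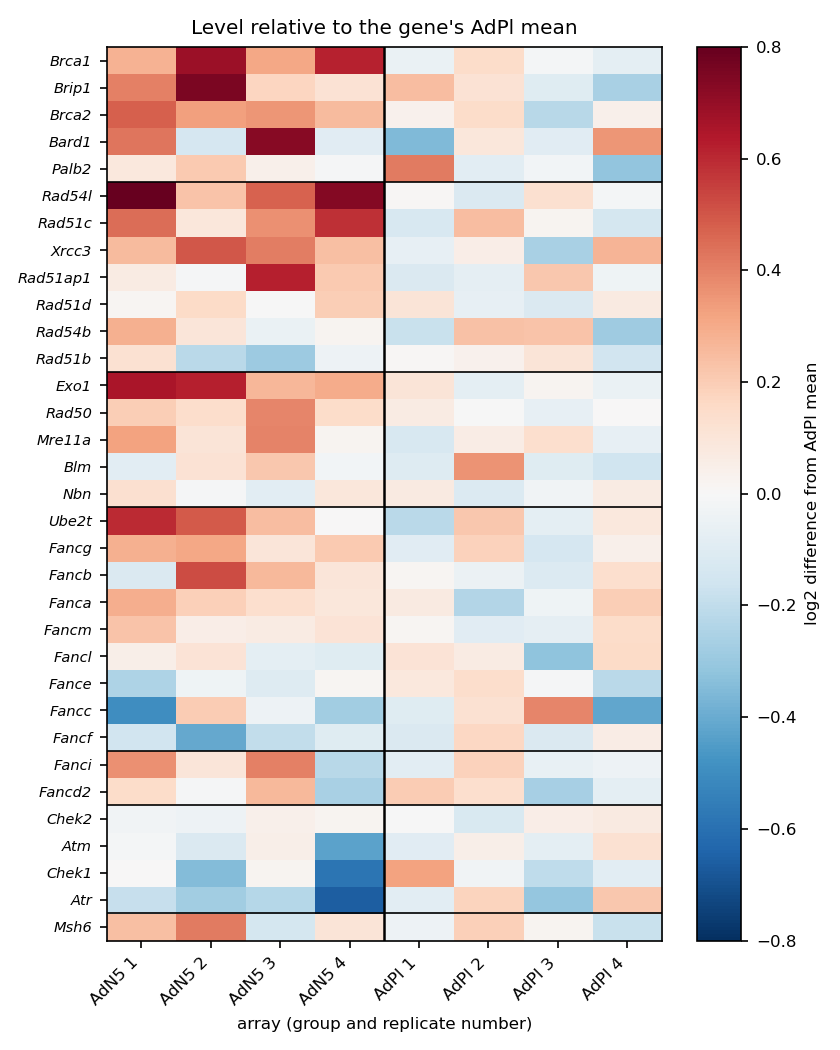
Level of each of the 33 repair genes (rows, in role groups divided by lines) in each array (columns, AdN5-labelled on the left and AdPl on the right), as the log2 difference from the gene's mean over the 4 AdPl arrays. Red is higher and blue lower. Brca1, Brca2, Rad54l, Exo1 and Rad50 are red in all 4 AdN5-labelled arrays, and the kinases Atm, Chek1 and Atr are bluest in AdN5 replicate 4.

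Dim probe sets were about as frequent among these genes as among all genes. For 16 of the 33 genes the mean over all 8 arrays was under the median probe set of an array (3.76). The same held for 12438 of all 24704 genes. At such levels RMA compresses differences toward 0. Of the 16 dim repair genes 14 had differences above 0, with a median of 0.21, and 6 (37.5%) were higher at an unadjusted p under 0.05. Of the 17 genes over the median probe set 10 had differences above 0, with a median of 0.058. At that level 4 (23.5%) were higher and 1 (5.88%) lower. Of all genes, dim and bright together, 51% were above 0, 6.24% were higher and 6.29% lower. Shares of all dim or all brighter genes were not computed, so this split is not shown to be particular to the repair genes. The difference between the dim and the brighter genes was not tested.

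Promoters in the RefSeq table were found for 27 of the 33 genes. At least 1 CCAAT word lay in the windows of 19 of them, 70.4%, against 41.9% of the 18379 measured genes with a window. An E2F word was found for 6, 22.2%, against 3.25%. They were Bard1, Brca2, Chek2, Fancg, Msh6 and Rad51c. A CHR word was found for 3, 11.1%, against 19.8%, and an NFAT core word for Chek1, Rad51b and Rad51c, 11.1%, against 22.5%. The 6 genes with an E2F word had a median log2 difference of 0.23 (-0.00058 to 0.37). The 21 without had 0.11 (-0.34 to 0.58). These ranges overlap, and the difference between the 6 and the 21 genes was not tested. Over all genes the medians were 0.023 with an E2F word and 0.0027 without. These words are matches of letters, and a window without one may hold other forms of the site.

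Of these 27 genes 10 start head to head with another measured gene, on the opposite strand and within 1000 bases, so that the pair shares the stretch between its starts. Nbr1, an autophagy receptor gene that starts 152 bases from Brca1, had a mean of 8.56 ± 0.069 in the AdN5-labelled arrays and of 8.43 ± 0.086 in the AdPl arrays (SD, n = 4 each). Its difference of 0.13 ± 0.077 stood beside 0.47 for Brca1. Tex14, known from germ cell bridges in the mouse testis and 111 bases from Rad51c, had a mean of 3.31 ± 0.18 in the AdN5-labelled arrays and of 3.03 ± 0.025 in the AdPl arrays. Both means of Tex14 were under the median probe set (3.76). This pair had similar values, 0.28 ± 0.097 for Tex14 and 0.37 for Rad51c. So did Dctn5 (0.13 ± 0.073) and Palb2 (0.080), which start 95 bases apart. Npat, a regulator of histone gene transcription that starts 376 bases from Atm, had 0.018 ± 0.087 beside -0.13 for Atm. Zfyve21 had -0.11 ± 0.093 beside 0.35 for Xrcc3, and Ankrd49 had -0.045 ± 0.070 beside 0.21 for Mre11a. Of the 10 neighbours 0 were called in limma, Tex14 alone had an unadjusted p under 0.05 (0.0170), and the differences within pairs were not tested.

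**Figure D4:**
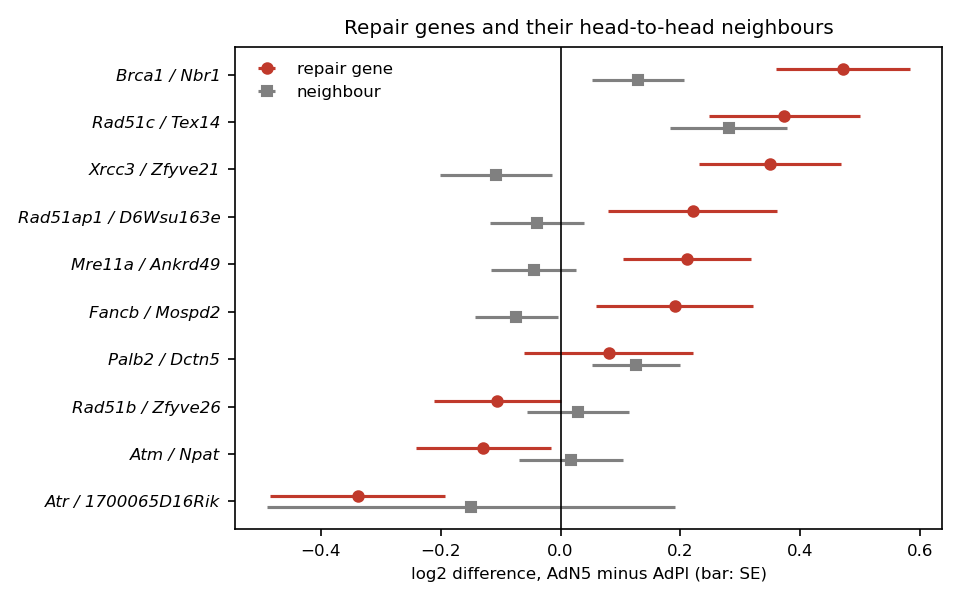
Log2 difference between the AdN5-labelled and the AdPl arrays (x axis) for 10 repair genes (red circles) and the gene that starts head to head with each (grey squares), with standard errors from limma as bars. Brca1 lies at 0.47 and Nbr1 at 0.13, while Rad51c (0.37) and Tex14 (0.28) lie close together, as do Palb2 (0.080) and Dctn5 (0.13).

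Related repair lists were described from the same fit, and lists were not tested against each other. Before adjustment 6.24% of all genes were higher and 6.29% lower with a p under 0.05. The other recombination and crosslink repair genes had a median of 0.021, with 30 of 51 above 0, 0 called and 6 higher and 1 lower with a p under 0.05 before adjustment. Gen1, a nuclease that cuts Holliday junctions, had the highest difference (0.56 ± 0.13, adjusted p = 0.108) and Zranb3, a fork-remodelling enzyme, the lowest (-0.37 ± 0.10, adjusted p = 0.171). Of the 17 checkpoint adaptors and mediators 1 was called. Clspn, encoding claspin, the adaptor through which ATR activates CHEK1, had a mean of 3.48 ± 0.15 in the AdN5-labelled arrays and of 2.78 ± 0.16 in the AdPl arrays (SD, n = 4 each) and rose by 0.69 ± 0.11 (adjusted p = 0.0251). This call was lost without AdN5 replicate 1 or 3 or without AdPl replicate 1, 2 or 3 (adjusted p = 0.0654 to 0.0857) and without AdN5 replicate 4 and AdPl replicate 3 (0.123). With the replicate block the call of Clspn was lost too. Wee1 was lowest in that list (-0.16).

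The remaining repair lists had 0 called genes. The median was 0.10 over 19 genes of base excision and single-strand break repair (14 above 0, 1 called without AdN5 replicate 4; Neil3 0.58, Aptx -0.21), -0.011 over 11 nucleotide excision repair genes (5 above 0; Ercc8 0.26, Ddb2 -0.13) and -0.10 over 8 genes of non-homologous end joining (3 above 0; Poll 0.14, Lig4 -0.27). It was -0.020 over the other 4 mismatch repair genes (2 above 0; Pms2 0.090, Mlh3 -0.12). At an unadjusted p under 0.05 these lists held 3 higher and 1 lower, 1 and 0, 0 and 1, and 0 and 0 genes. The p53 targets that DNA damage induces had a median of -0.028 over 19 genes, with 9 above 0 and 0 called. Before adjustment 6 were higher and 1 lower with a p under 0.05 (31.6% and 5.26%), against 6.24% and 6.29% of all genes. The AdN5-labelled arrays lay above all AdPl arrays for 31.6% of them and below for 5.26%, against 4.22% and 4.56% of all genes. Pmaip1 was highest (0.23), Sesn1 lowest (-0.22), and Cdkn1a, the cyclin-dependent kinase inhibitor, was at 0.14 ± 0.070.

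Many genes of proliferating cells were higher in the same arrays. Of all genes 6.24% were higher and 6.29% lower with a p under 0.05 before adjustment. In limma 0.364% of all genes were called higher and 0.413% lower, and 51% had a difference above 0. Of 24 S phase and replication genes 21 were above 0, with a median of 0.33 and 15 higher and 0 lower with a p under 0.05 before adjustment. In this list 5 rose and 0 fell, namely Ccne2 (0.93 ± 0.14), encoding cyclin E2, the helicase subunits Mcm6 (0.60 ± 0.080), Mcm4 (0.57 ± 0.098) and Mcm3 (0.48 ± 0.075), and Ccne1 (0.54 ± 0.086), encoding cyclin E1. With any 1 array left out this count was 0 to 3, and it was 0 without AdN5 replicate 4 and AdPl replicate 3. Tk1 was lowest (-0.052). Of 19 genes of G2 and mitosis 18 were above 0, with a median of 0.33. Before adjustment 11 of them were higher and 0 lower with a p under 0.05. In that list 2 rose and 0 fell, namely Ccna2 (0.84 ± 0.15) and Mki67 (0.61 ± 0.10). With 1 array left out that count was 0, except 2 without AdN5 replicate 3 and 1 without AdN5 replicate 4, and Ttk was lowest (-0.021). The summed linear signal of the S phase list ran from 1793 to 2047 in the AdN5-labelled arrays and from 1499 to 1633 in the AdPl arrays. That of the G2 and mitosis list ran from 550.0 to 731 in the AdN5-labelled arrays and from 463 to 520 in the AdPl arrays. The part of the share of dividing cells in the values of the repair genes was not tested.

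Markers of other cells also differed between the groups. All 9 macrophage markers were above 0, with Adgre1 (0.68 ± 0.083), Laptm5 (0.53 ± 0.086) and Cd68 (0.52 ± 0.088) called, and their summed linear signal ran from 1478 to 1694 in the AdN5-labelled arrays and from 1084 to 1204 in the AdPl arrays. Adgre1 was called with any 1 array left out, Laptm5 only without AdPl replicate 4 and Cd68 in none of these fits. Of 9 fibroblast or adventitial markers 7 were below 0 and Ly6c1 fell by 1.24 ± 0.23, with sums of 5186 to 5530 in the AdN5-labelled arrays against 5478 to 5929 in the AdPl arrays. Of the fits with 1 array left out, Ly6c1 was called only in that without AdN5 replicate 1. Of the 9 smooth muscle markers 5 were above 0, with a median of 0.013 and 0 called. Their sums were 5067 to 5532 in the AdN5-labelled arrays against 5941 to 6023 in the AdPl arrays. Acta2 was at -0.30 ± 0.071 without being called (adjusted p = 0.113 in limma). Linear sums weigh the brightest genes most, which were Acta2 among these 9 and Dcn in the fibroblast list. The mean log2 level of Acta2 was 11.74 in the AdN5-labelled and 12.04 in the AdPl arrays. The 8 endothelial markers had a median of -0.065 and 0 called, with sums of 234 to 271 in the AdN5-labelled arrays against 214 to 263 in the AdPl arrays. The part of these markers in the values of the repair genes was not tested. Every measured marker has a log2 level above 0, so a value alone does not show that a marker is expressed.

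**Figure D5:**
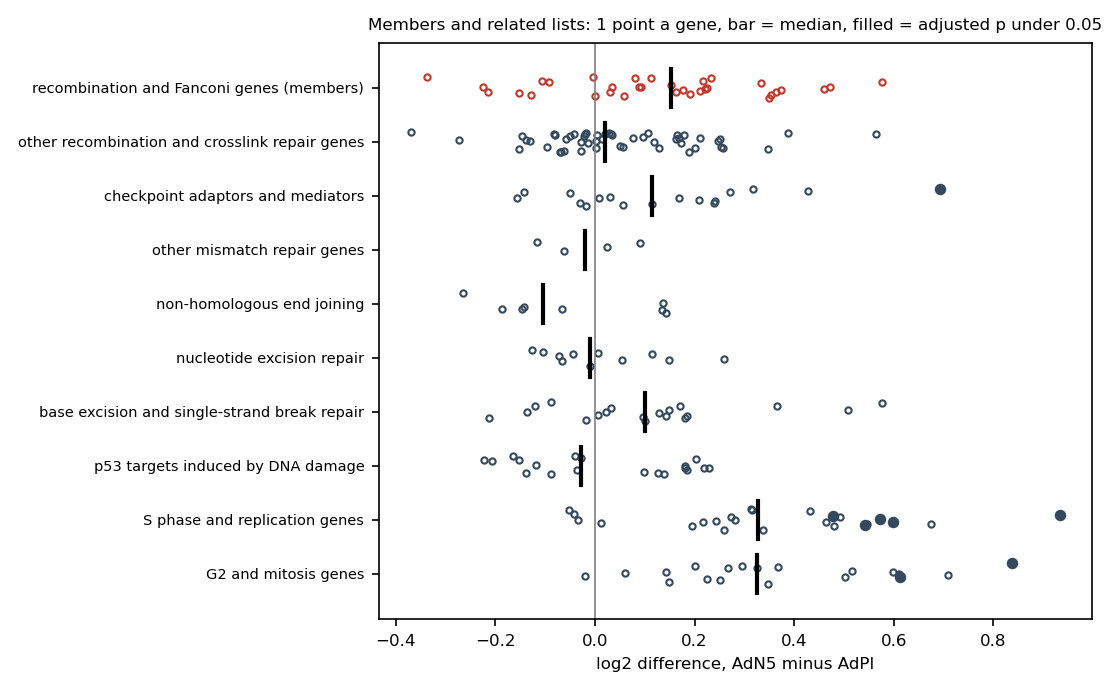
Log2 difference between the AdN5-labelled and the AdPl arrays (x axis) for the 33 repair genes (red) and the genes of 9 related lists (blue), 1 point a gene. Filled points passed an adjusted p of 0.05 in limma and black bars are medians. The repair genes have a median of 0.15 and no filled point, and the S phase and G2 and mitosis lists have medians of 0.33.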

How the data were processed

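Expression was measured on 8 arrays, 4 AdN5 and 4 AdPl, grouped and numbered by their titles. The authors deposited log2 values from RMA, per the submitters' processing notes. RMA subtracts background, equalises the distribution of the arrays and combines probes into probe sets. No version is given there. Sorted values differed between arrays by at most 0.00183, so a shift of all genes in 1 direction could not be seen. No source used here gives the genome build or how probe sets were defined. Of 25428 probe sets 24705 had a symbol in the platform annotation, and 723 were not listed and stay unnamed. The brightest probe set of a symbol was kept, which left 24704 genes, with no filter on dim genes. Groups were compared in R 4.3.3 by the functions lmFit and eBayes of limma 3.58.1 (two-sided, no covariates), with Benjamini-Hochberg adjustment over all genes, a threshold of 0.05, and errors of differences as standard errors. Scripts were tested on simulated data. Figures were drawn with Python 3.11.15 and matplotlib 3.10.9. Promoters came from RefSeq on GRCm38.p6. The number of arrays limits the precision.

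The members and the related lists were chosen with earlier results of these data known. All members may be named. Every array is given for called members and for the ends of each role group. Brca2, Rad50, Bard1, Rad54b, Rad51c, Xrcc3 and Chek1 were added after their values were seen, and so were the neighbour genes, Cdkn1a, Des and Myocd. Of related lists, called genes and both ends are named. Of 182 related entries 172 were measured, and of 37 marker entries 35. Others were not analysed here. The alternatives were filters on dim genes (lower quartile or median), a replicate block, array weights and median centring. Further ones were a second quantile normalisation, robust estimation with a variance trend, and every probe set by itself. Each array was also left out, as were AdN5 replicate 4 and AdPl replicate 3 together, and other thresholds were used.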

Additional observations from a re-analysis of the deposited data

Results flagged for a closer look

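Of 132 groups of 4 arrays examined, 66 of them of repair genes, 2 held an array far from its group by Dixon's test, and chance flags about 1 in 20 groups. Both were AdPl replicate 2 and both were repair genes. The log2 level of Blm was 4.35 in that array, against 3.83 to 3.89 in the other AdPl arrays. The log2 level of Fanci was 2.76 there, against 2.48 to 2.53 in the other AdPl arrays. Without AdPl replicate 2 the log2 difference was 0.18 for Blm and 0.22 for Fanci, and neither was called.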

How the results depend on the processing

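The count of genes called was 192. It was 497 among genes above the median level, 781 with robust estimation and a variance trend, 14 with the replicate block, 30 without AdN5 replicate 4 and AdPl replicate 3, and 56 to 88 with 1 array left out. At an adjusted p under 0.01 there were 42, under 0.1 there were 355, and 110 had an adjusted p under 0.05 and at least a 1.5-fold difference. Repair genes called higher numbered 0, except 1 (Rad54l) in the robust fit with a variance trend, and 0 were called lower in any fit. The repair genes higher at an unadjusted p under 0.05 numbered 4 above the median level, where 17 genes were kept, and 6 to 11 with 1 array left out. The lower ones numbered 2 above the median level, 2 without AdN5 replicate 4 and AdPl replicate 3, 0 with the replicate block and 0 to 2 with 1 array left out. The median difference was 0.058 above the median level and 0.085 to 0.18 with 1 array left out.

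Of 545 single values of repair genes over 17 alternatives, 525 kept direction and side of the threshold, 1 passed it and 19 changed sign. With 1 array left out, Palb2 ran from -0.024 to 0.22, Rad54b from -0.0078 to 0.17, Nbn from -0.0065 to 0.069, Fancl from -0.11 to 0.047, Fancd2 from -0.054 to 0.13 and Chek2 from -0.040 to 0.023. The values of other genes that changed sign were those of Tk1 (-0.12 to 0.0057), Ttk (-0.11 to 0.10) and Cd14 (-0.017 to 0.18). Without AdN5 replicate 4 and AdPl replicate 3 the values were 0.019 for Fancc (-0.29 to -0.022 with 1 array left out), -0.00069 for Nbn and 0.0083 for Chek2. The causes were not tested, beyond the smaller number of genes or arrays in some fits. Deviations of arrays with the same number had correlations from -0.080 to 0.055 over 4 pairs, against -0.070 to 0.15 over 12 others. So few pairs cannot show whether the numbers pair the cultures, and the labels do not say. With the replicate block Clspn had an adjusted p of 0.121, and 0 genes of the S phase and of the G2 and mitosis lists were called. Signal near the median probe set limits the dim genes.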
